A study of Mus musculus with 12 samples.

Results

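The norepinephrine (NE) response of brown adipocytes that overproduce the cleaved form of Semaphorin 4B (tSema4B) was examined by RNAseq. Semaphorin 4B is a membrane protein that the protease ADAM17 sheds from the cell surface, and tSema4B is a truncated, Flag-tagged mimetic of the part that is released. The members of the comparison are the 6 libraries labelled tSema4B, 3 without stimulation and 3 after NE, out of 12 libraries in all. The other 6 libraries came from cells with the empty pLEX vector, 3 in each condition, and were used as the parallel comparison. All 4 groups were brown preadipocytes of a newborn WT mouse that had been immortalized with the SV40 large T antigen, transduced with a pLEX lentivirus, selected with puromycin and differentiated for 8 days, with IBMX, rosiglitazone and dexamethasone in the medium of day 0 and day 2 and insulin and T3 throughout. NE was given at 2 μM for 6 h in serum-free medium with 2% BSA, and the unstimulated cells were kept in the same medium without it. One stable line stood for each construct, and the 3 libraries of a group are called technical replicates in the labels, so the p-values below measure the spread between these libraries only. In bulk RNA, fewer cells that express a gene and less of its RNA per cell cannot be told apart.

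NE is the transmitter of the sympathetic nerves that activate brown fat. It binds beta-adrenergic receptors, which act through the stimulatory G protein and adenylyl cyclase to raise cyclic AMP and activate protein kinase A. The kinase phosphorylates transcription factors of the CREB family and lipolytic proteins, fatty acids are released from lipid droplets, and transcription of Ucp1, the uncoupling protein that lets mitochondria burn fuel as heat, is raised. Phosphodiesterases, receptor desensitization and regulators of G-protein signalling (RGS proteins) dampen the signal.

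Reads counted on genes lay between 2000780 and 2541747 in the unstimulated tSema4B libraries and between 2307190 and 3144946 after NE, and the mitochondrially encoded genes took 7.02% to 7.89% and 6.91% to 7.68% of them. A gene entered the test when its normalized count was at least 10 in at least 3 of the 12 libraries, which 11998 of the 48321 listed genes did. A value of 3 reads, the limit below which a gene was treated as undetected in a library, was worth 3.58 to 4.64 normalized counts in the unstimulated tSema4B libraries and 2.84 to 3.96 after NE. Limits and intervals made from reads cover counting error only. A gene was called, and is said to have risen or fallen, when limma gave an adjusted p (two-sided, Benjamini-Hochberg) of at most 0.05 together with a log2 fold change (log2FC, on the log2(normalized count + 1) scale) of 1 or more in size.

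The labelled cell type was checked against its markers. The adipocyte markers Adipoq, Plin1, Fabp4, Lipe, Pparg, Cidec and Cfd were all detected, with a summed level of 3736 to 5955 normalized counts in the unstimulated and 6025 to 7161 in the NE-treated tSema4B libraries, against 26899.6 to 29405 and 38441 to 50525 in vector cells. Most of this sum was Fabp4 (4425, 2873 and 4975 before and 6039, 5476 and 5038 after NE in tSema4B cells), while Plin1 had 57.2 to 123 and 30.03 to 78.6 and Pparg 80.4 to 114 and 58.1 to 88.1, both with overlapping groups. Of the 7 brown adipocyte markers, Cox8b and Dio2 had no read in any tSema4B library, and the summed level of the 7 was 38.1 to 64.3 before and 119 to 147 after NE, of which Ucp1 was 0 before and 60.8 to 66.5 after. The 7 preadipocyte and fibroblast markers were summed to 16039 to 18225 and 13745 to 14617. The macrophage markers Ptprc, Adgre1, Itgam and Aif1, the endothelial markers Kdr, Cldn5 and Emcn, and the muscle markers Myod1, Myog, Myf5 and Ckm had no read in the tSema4B libraries. The transduced gene Sema4b had 258257, 316850.0 and 269434 normalized counts in the unstimulated tSema4B libraries and 208760.0, 223375 and 270694 after NE, a difference that did not pass the test (log2FC -0.27, SE 0.09, adjusted p = 0.0760). The vector libraries were also rich in it, with 124008, 110786 and 115596 before and 81754, 65472 and 75571 after NE. Its reads were 3.58% to 4.02% of all reads in unstimulated and 2.04% to 2.57% in NE-treated vector libraries, against 8.53% to 10.2% and 7.01% to 8.88% in tSema4B libraries.

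NE raised 157 genes in tSema4B cells (1.31% of the genes tested) and lowered 91 (0.758%). Without the limit on the fold change, 441 genes were higher (3.68%) and 309 were lower (2.58%) at the same adjusted p. The 3 NE libraries lay above the 3 unstimulated libraries without overlap for 1323 genes (11.0%) and below them for 1157 genes (9.64%). The median log2 fold change of the called genes was 1.46 for those that rose and -1.34 for those that fell, and 49 of the former and 24 of the latter changed by at least 2 on this scale. The plot of fold change against mean level shows that the genes with the largest changes had low mean levels. Of the called genes, 30 had at most 3 reads in every library of the lower group, and 9 of these had none there. The fitted fold changes of these genes rest on few reads and depend on the pseudocount.

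**Figure D1:**
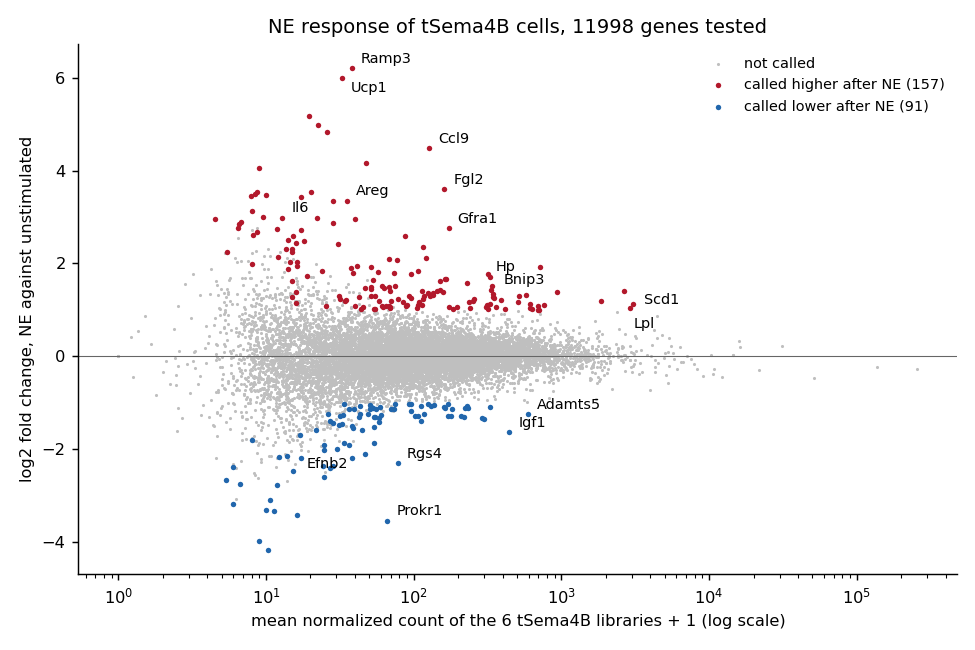
Log2 fold change of NE against unstimulated tSema4B cells (vertical axis) against the mean normalized count of the 6 tSema4B libraries plus 1 (horizontal log axis) for the 11998 genes tested. The 157 genes called higher are red and the 91 called lower are blue. Ramp3 and Ucp1 lie at the top, and Prokr1, Igf1 and Rgs4 are among the labelled genes that fell.

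The thermogenic programme was raised in part. Of 23 tested genes of the thermogenic and brown adipocyte list, 5 rose and 0 fell (no other member passed the adjusted p alone). The list had a median log2FC of 0.61 against -0.005 for all genes tested and 0.09 for the same list in vector cells. For the difference of the 2 responses 0 of its genes passed the test (limma, lowest adjusted p = 0.113). Ucp1 (ENSMUSG00000031710.4, chromosome 8 from 83290348 to 83298456, GRCm38) had no read in any of the 3 unstimulated tSema4B libraries and 66.5, 61.5 and 60.8 normalized counts after NE. The groups did not overlap, and against the value of 3 reads the mean after NE, 62.9 ± 3.10 (SD, n = 3), was at least 13.6-fold higher (adjusted p = 8.46e-10). In vector cells Ucp1 went from 15.2, 9.25 and 12.0 to 293, 268 and 268, so that its level after NE was lower in each tSema4B library than in each vector library. Gk, a glycerol kinase that lets adipocytes re-esterify fatty acids, had 139, 77.3 and 133 normalized counts before and 271, 387 and 369 after NE (log2FC 1.58, SE 0.18, adjusted p = 3.92e-06). Clstn3, whose locus also encodes an adipocyte-specific form that acts on lipid droplets, had 7.15, 4.64 and 5.48 before and 55.8, 36.9 and 54.2 after (log2FC 2.88, SE 0.31, adjusted p = 2.06e-06). All 3 NE libraries were above all 3 unstimulated libraries for both genes. Elovl3, an elongase of very long chain fatty acids that is induced in brown fat by cold, had 9.53, 4.64 and 2.74 before and 20.4, 35.0 and 18.5 after (log2FC 2.03, SE 0.42, adjusted p = 0.00376), and its call was lost when only the 6 tSema4B libraries were fitted. The fifth, Mpzl2, rested on 2 reads in the unstimulated group, with 0, 3.09 and 0 normalized counts before and 11.8, 7.57 and 10.6 after, a ratio of 10.9 with a counting interval of 2.74 to 94.5, and its call was lost in 9 of 17 alternatives, among them leaving out the unstimulated replicate 1 (log2FC 2.42, adjusted p = 0.0677), the unstimulated replicate 3 (log2FC 2.42, adjusted p = 0.0643), the NE replicate 1 (log2FC 2.64, adjusted p = 0.0587) or the NE replicate 3 (log2FC 2.71, adjusted p = 0.0583).

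Other regulators of thermogenesis did not pass the test. Ppargc1a, the coactivator of mitochondrial biogenesis, had 9.53, 46.4 and 42.4 normalized counts before and 29.0, 14.2 and 11.9 after NE (log2FC -0.63, SE 0.52, adjusted p = 0.557). The groups overlapped and the unstimulated replicate 1 was far below the other unstimulated libraries. Prdm16, a determinant of brown fat identity, had 11.9, 7.73 and 12.3 and 22.5, 10.4 and 19.8 (log2FC 0.63, SE 0.47, adjusted p = 0.496). Cidea, a lipid droplet protein of brown fat, was low throughout, with 7.15, 4.64 and 6.85 before and 8.58, 11.4 and 7.93 after (log2FC 0.52, SE 0.38, adjusted p = 0.488), and Fgf21, a hormone released by stimulated brown fat, had 4.77, 3.09 and 0 and 9.65, 6.63 and 1.32 (log2FC 1.00, SE 0.74, adjusted p = 0.498).

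Of the genes of respiration, none was called. Among 89 nuclear genes of the respiratory chain 0 rose and 0 fell and 0 were higher and 1 lower at the adjusted p alone, with a median of 0.03, and among 8 mitochondrially encoded genes 0 were called and 2 were higher and 0 lower at the adjusted p alone, with a median of 0.22 that was also positive under the 5 other scalings tried (0.16 to 0.24). Of 32 genes of fatty acid oxidation 0 were called as well, with 0 higher and 2 lower at the adjusted p alone (median -0.09).

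The receptor and its cyclic AMP arm were examined next. Of 26 tested genes of the beta-adrenergic pathway (receptors, G protein subunits, adenylyl cyclases, protein kinase A subunits and arrestins), 0 rose and 0 fell. Adrb3, the receptor that predominates in adipocytes, had only 25.0, 9.28 and 9.58 normalized counts before and 7.51, 7.57 and 11.9 after NE (log2FC -0.53, SE 0.36, adjusted p = 0.449). Of 31 tested cyclic AMP and CREB target genes 3 rose and 0 fell (median 0.12), against 7 and 0 in vector cells. For the difference of the 2 responses 0 of them passed the test (limma, lowest adjusted p = 0.181). Crem, which encodes the repressor ICER among its products, had 65.6, 80.4 and 42.4 before and 159, 179.9 and 149 after NE without overlap (log2FC 1.40, SE 0.20, adjusted p = 1.20e-04). Gadd45g, a growth arrest gene, had 42.9, 26.3 and 47.9 and 84.7, 73.9 and 87.2 (log2FC 1.09, SE 0.24, adjusted p = 0.00680), and its call was lost without the unstimulated replicate 2 (log2FC 0.84, adjusted p = 0.0390), with a pseudocount of 10 and with only the 6 tSema4B libraries fitted. The third was Areg, described below.

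The orphan nuclear receptor Nr4a1, a CREB target that responds within the first hours of stimulation, did not pass the test in tSema4B cells at 6 h (23.8, 37.1 and 32.9 before and 17.2, 28.4 and 41.0 after, log2FC -0.17, SE 0.36, adjusted p = 0.850), whereas its log2 fold change in vector cells was 1.71 (adjusted p = 0.00338). The difference of the 2 responses had an unadjusted p of 0.00142 and did not pass adjustment over all genes (adjusted p = 0.181). Sik1, a salt-inducible kinase of the same group, had 39.3, 41.8 and 45.2 before and 27.9, 21.8 and 21.1 after in tSema4B cells (log2FC -0.82, SE 0.38, adjusted p = 0.229).

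Feedback genes were called in 2 instances. Of 12 tested phosphodiesterases 1 rose, Pde1a, a calcium- and calmodulin-dependent enzyme that had 101, 69.6 and 71.2 normalized counts before and 233, 183 and 234 after NE (log2FC 1.42, SE 0.19, adjusted p = 3.38e-05). The cyclic AMP-specific Pde4b and Pde4d did not pass, with 87.0, 164 and 99.9 against 198, 140.1 and 155 (log2FC 0.53, SE 0.21, adjusted p = 0.151) and 62.0, 23.2 and 50.7 against 98.7, 54.0 and 92.5 (log2FC 0.90, SE 0.31, adjusted p = 0.0869). The call of Pde4d was made without the unstimulated replicate 1 (log2FC 1.18, adjusted p = 0.0360) or the NE replicate 2 (log2FC 1.17, adjusted p = 0.0390). Of 9 tested RGS genes 1 fell, Rgs4, an inhibitor of signalling through Gq and Gi, which had 81.0, 167 and 142 normalized counts before and 24.7, 23.7 and 25.1 after (log2FC -2.30, SE 0.37, adjusted p = 3.91e-04). The NE libraries of Rgs4 lay close together and well below the unstimulated ones. Rgs2, a cyclic AMP-responsive member, was higher by less than the fold limit, with 353, 288 and 320.4 against 521, 571 and 459.8 (log2FC 0.69, SE 0.11, adjusted p = 3.36e-04), and Rgs17 was lower by less than that limit (log2FC -0.91, SE 0.23, adjusted p = 0.0203), a change that became a call without the NE replicate 2 (log2FC -1.14, adjusted p = 0.00838).

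Among 22 tested immediate-early transcription factors 1 rose and 0 fell, with 6 higher and 2 lower at the adjusted p alone and a median of 0.42. Junb, an AP-1 subunit, had 161, 172 and 125 normalized counts before and 347, 356 and 369 after NE without overlap (log2FC 1.24, SE 0.14, adjusted p = 2.93e-06). Fos did not pass the test (60.8, 113 and 83.5 before and 79.4, 66.3 and 87.2 after, log2FC -0.11, SE 0.24, adjusted p = 0.863), and Egr1 was lower by less than the fold limit (636, 649.7 and 698 before and 518, 460.2 and 440.0 after, log2FC -0.49, SE 0.11, adjusted p = 0.00786).

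Promoters of the called genes were searched for motifs of these factors in windows of 300 bases, from 250 before to 50 after each RefSeq start site (GRCm38.p6). A window was found for 112 of the 157 genes that rose, for 66 of the 91 that fell and for 8681 of the 11998 tested. The full cyclic AMP response element, TGACGTCA (its own reverse complement), was present for 5 of the genes that rose (4.46%), for 0 of those that fell and for 3.82% of all genes tested. For AP-1 the letters TGANTCA were searched, a loose form of the site with any base at N (its own reverse complement where N is ignored). They were present for 18 of the genes that rose (16.1%), for 7 of those that fell (10.6%) and for 5.94% of all genes tested. These shares were not split by the base at N. Among genes with a single window the AP-1 shares were 11 of 84 (13.1%), 4 of 49 (8.16%) and 4.22%. The shorter core TGACG (both strands, contained in the full element) was present for 32.1%, 27.3% and 37.0%, and the motif AAAGGTCA of the Nr4a receptors (both strands) for 1.79%, 1.52% and 0.991%. A match describes letters only and is no evidence of binding.

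The 250 bases before the start site are shown for Areg, the called gene of the EGF family with a full cyclic AMP response element. They are also shown for Ccl9 and Fgl2, which rose strongly, and for Igf1, which fell. Ccl9, Fgl2 and Igf1 match the letters searched for AP-1, with TGAGTCA in Fgl2 and TGAATCA in Ccl9 and Igf1. The motif is in capitals and the sequences are from RefSeq (GRCm38.p6), 5′ to 3′ on the strand of the gene. Areg lies on the plus strand (chr5:91139349-91139598), with its motif 61 bases before the start site. Ccl9 lies on the minus strand (chr11:83578637-83578886, 53 bases before), Fgl2 on the plus strand (chr5:21372423-21372672, 16 bases before) and the Igf1 window on the plus strand (chr10:87860861-87861110, 37 bases before a start site inside the span of the gene).
Areg: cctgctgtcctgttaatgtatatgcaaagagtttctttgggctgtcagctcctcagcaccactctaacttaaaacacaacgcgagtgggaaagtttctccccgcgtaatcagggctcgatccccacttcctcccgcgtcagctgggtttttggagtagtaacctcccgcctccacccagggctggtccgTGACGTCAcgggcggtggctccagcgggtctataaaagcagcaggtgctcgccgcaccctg
Ccl9: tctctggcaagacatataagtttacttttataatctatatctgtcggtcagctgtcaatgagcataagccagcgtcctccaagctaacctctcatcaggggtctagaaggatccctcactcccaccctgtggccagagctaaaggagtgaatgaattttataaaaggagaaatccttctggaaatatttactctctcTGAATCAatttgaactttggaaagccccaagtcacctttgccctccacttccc
Fgl2: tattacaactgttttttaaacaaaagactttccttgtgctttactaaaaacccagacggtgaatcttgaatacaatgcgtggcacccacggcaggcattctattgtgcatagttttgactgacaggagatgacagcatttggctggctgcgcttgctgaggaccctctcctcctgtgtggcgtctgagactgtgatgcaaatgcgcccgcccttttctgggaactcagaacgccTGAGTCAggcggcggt
Igf1: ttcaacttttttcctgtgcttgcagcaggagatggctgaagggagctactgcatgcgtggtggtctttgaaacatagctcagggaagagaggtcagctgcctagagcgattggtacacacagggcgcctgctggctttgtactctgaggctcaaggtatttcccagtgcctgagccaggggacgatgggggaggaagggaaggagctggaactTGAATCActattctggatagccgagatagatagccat

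ADAM17 also sheds ligands of the EGF receptor, and of 22 tested genes of the EGF ligand and ADAM17 list 2 rose and 0 fell (median -0.06). Areg (amphiregulin, ENSMUSG00000029378.5, chromosome 5 from 91139599 to 91148432) had 1.19, 9.28 and 9.58 normalized counts in the unstimulated tSema4B libraries and 62.2, 59.6 and 64.7 after NE. The NE libraries were within 6 counts of one another and the groups did not overlap (log2FC 3.35, SE 0.49, adjusted p = 1.22e-04). Ereg (epiregulin) had 31.0, 24.8 and 16.4 before and 83.6, 73.9 and 46.2 after NE (log2FC 1.46, SE 0.40, adjusted p = 0.0298), and its call was lost without the unstimulated replicate 2 (log2FC 1.50, adjusted p = 0.0579) or 3 (log2FC 1.22, adjusted p = 0.113), without the NE replicate 1 (log2FC 1.29, adjusted p = 0.101) or 2 (log2FC 1.38, adjusted p = 0.0921), and with no filter on low counts. Hbegf had 63.2, 51.0 and 19.2 and 20.4, 34.1 and 39.6 (log2FC -0.38, SE 0.46, adjusted p = 0.714). The protease gene Adam17 had 595, 712 and 561 before and 515, 632 and 599.9 after, and its adaptor Rhbdf2 had 21.5, 35.6 and 21.9 and 34.3, 34.1 and 15.9, both with overlapping groups (log2FC -0.09, SE 0.12, adjusted p = 0.721 and log2FC 0.05, SE 0.40, adjusted p = 0.968).

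Of 53 tested cytokines, chemokines and secreted ligands 7 rose and 1 fell, with a median of 0.07. Ccl9, a chemokine for myeloid cells (ENSMUSG00000019122.8, chromosome 11 from 83572917 to 83578636), had 17.9, 9.28 and 5.48 normalized counts before and 246, 272 and 206 after NE. Every NE library was more than 10 times the highest unstimulated one (log2FC 4.48, SE 0.39, adjusted p = 1.05e-07). Hp (haptoglobin), which binds free haemoglobin and is secreted by adipocytes, had 182, 159 and 182 before and 456, 544 and 514 after (log2FC 1.53, SE 0.11, adjusted p = 5.59e-09), and Cxcl14, a chemokine that brown fat releases on activation, had 14.3, 26.3 and 37.0 and 101, 77.6 and 58.1 (log2FC 1.63, SE 0.34, adjusted p = 0.00454). Neither pair of groups overlapped. Il6, a cytokine released by stimulated brown fat, had 2.38, 0 and 5.48 before and 20.4, 20.8 and 22.5 after (log2FC 2.99, SE 0.77, adjusted p = 0.0210), and its call was lost without the unstimulated replicate 2 (log2FC 2.25, adjusted p = 0.0949), without the NE replicate 2 (log2FC 3.00, adjusted p = 0.0591) or 3 (log2FC 2.95, adjusted p = 0.0584), and with no filter. Spp1 (osteopontin), the most abundant member, was higher by less than the fold limit (3528, 3248 and 3528 before and 4798, 4935 and 5506 after, log2FC 0.56, SE 0.08, adjusted p = 9.34e-05). Thbs1 was lower by less than that limit (1100.1, 1084 and 1038 before and 596, 620.2 and 523 after, log2FC -0.89, SE 0.15, adjusted p = 7.15e-04).

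**Figure D2:**
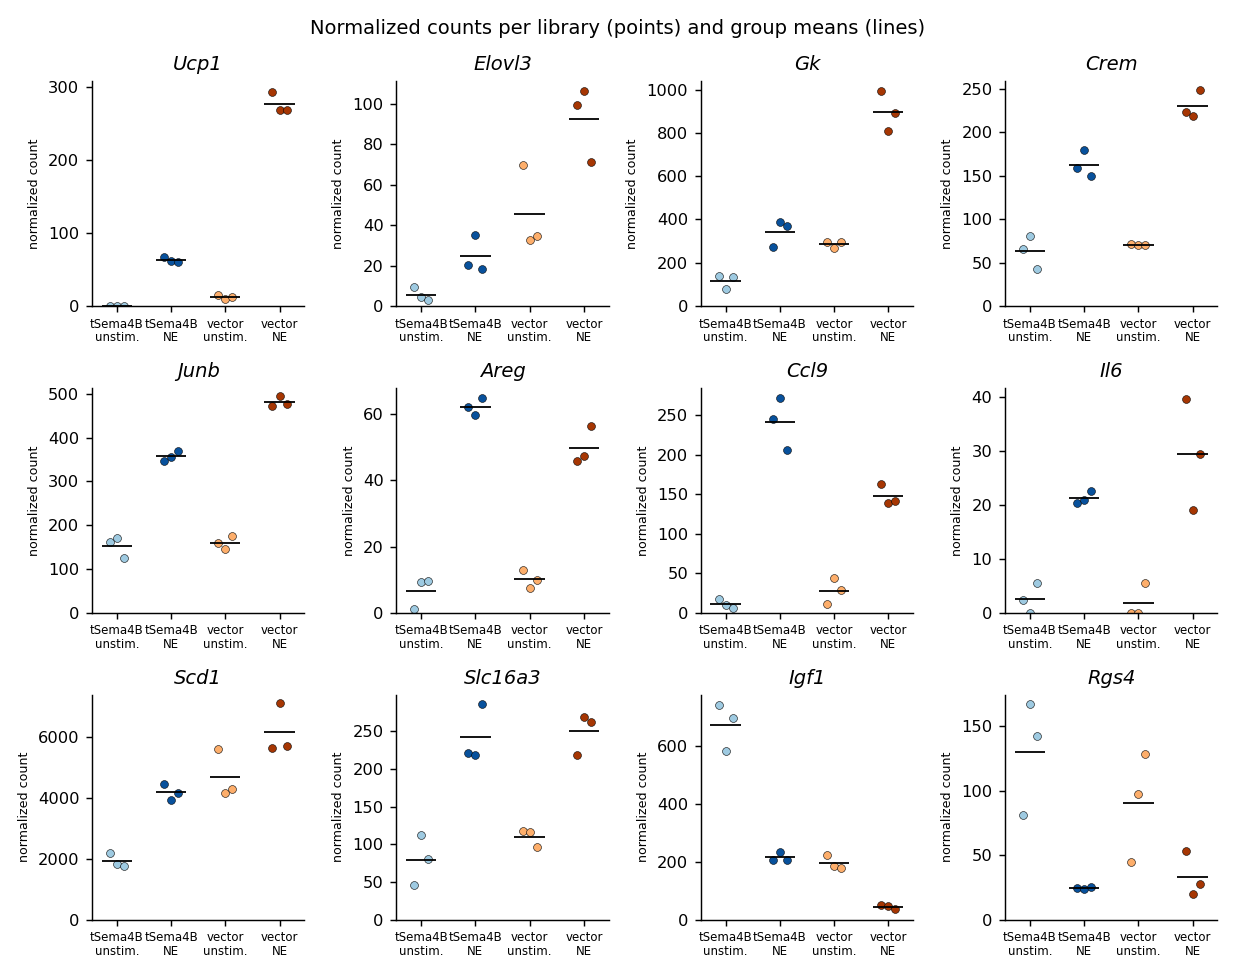
Normalized count (vertical axes, from 0) of 12 genes in each library (points) with the mean of each group of 3 (lines). In tSema4B cells the NE points lie above the unstimulated ones in all panels but those of Igf1 and Rgs4, where they lie below. Ucp1 is at 0 in the 3 unstimulated tSema4B libraries.

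The next genes were chosen for the size of their rise. Ramp3, a partner of the calcitonin receptor-like receptor that directs it towards adrenomedullin, had no read in the unstimulated tSema4B libraries and 90.1, 60.6 and 71.4 normalized counts after NE, at least 15.95-fold above the value of 3 reads (adjusted p = 6.67e-08). Gfra1, the co-receptor of GDNF, had 32.2, 49.5 and 50.7 before and 287, 330.4 and 277 after (log2FC 2.75, SE 0.22, adjusted p = 3.46e-08). Il1rl1, the receptor of IL-33, had 42.9, 57.2 and 32.9 and 240.2, 154 and 190.3 (log2FC 2.12, SE 0.35, adjusted p = 4.76e-04), and Lrrc32, which anchors latent TGF-beta at the surface, had 25.0, 54.1 and 31.5 and 143, 151 and 289 (log2FC 2.36, SE 0.39, adjusted p = 4.19e-04). The groups of these 4 genes did not overlap. Fgl2, a secreted fibrinogen-like protein, had 28.6, 43.3 and 9.58 before and 236, 339 and 303 after (log2FC 3.59, SE 0.36, adjusted p = 8.52e-07). Tnfsf11, which encodes RANKL, had 9.53, 13.9 and 2.74 and 107, 55.9 and 43.6 (log2FC 2.96, SE 0.56, adjusted p = 0.00183). Pappa2, a protease of IGF-binding proteins, had 35.8, 12.4 and 28.8 and 161, 146 and 135 (log2FC 2.60, SE 0.39, adjusted p = 1.77e-04), and Crispld2, a secreted glycoprotein, had 7.15, 0 and 11.0 and 132, 72.0 and 56.8 (log2FC 4.16, SE 0.66, adjusted p = 3.20e-04). Ackr3, a scavenging receptor of CXCL12, had 3.58, 13.9 and 11.0 and 48.3, 67.2 and 35.7 (log2FC 2.41, SE 0.67, adjusted p = 0.0318), and its call was lost without the unstimulated replicate 1 (log2FC 1.90, adjusted p = 0.136) or 3 (log2FC 2.59, adjusted p = 0.0511) and without the NE replicate 1 (log2FC 2.42, adjusted p = 0.0697) or 2 (log2FC 2.19, adjusted p = 0.114).

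Csf1r, a macrophage growth factor receptor, was the 1 tested macrophage marker and was called higher (1.19, 0 and 2.74 before and 9.65, 18.0 and 19.8 after, log2FC 3.00, SE 0.71, adjusted p = 0.0119). It rested on 3 reads in the unstimulated group, a ratio of 11.6 with a counting interval of 3.70 to 58.3, and its call was lost without the NE replicate 2 (log2FC 2.88, adjusted p = 0.0519) or 3 (log2FC 2.82, adjusted p = 0.0534). The summed level of the 6 macrophage markers was 0 to 5.48 normalized counts before and 9.65 to 24.6 after NE, made of Csf1r and Cd68 (Cd68 at 0, 0 and 2.74 before and 0, 6.63 and 0 after), and Ptprc, Adgre1, Itgam and Aif1 were at 0 in the 6 libraries.

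Single genes of lipid uptake and storage rose, without a common direction across lipid metabolism. Of 34 tested genes of fatty acid and triglyceride synthesis 4 rose and 0 fell, while 4 others were lower at the adjusted p alone. Scd1, the stearoyl-CoA desaturase, had 2186, 1811 and 1767 normalized counts before and 4459, 3910.4 and 4157 after NE (log2FC 1.12, SE 0.11, adjusted p = 3.51e-07). Dgat1, which makes triglycerides, had 58.4, 57.2 and 52.0 and 148, 116 and 104 (log2FC 1.11, SE 0.21, adjusted p = 0.00180), and without the NE replicate 1 its call was lost (log2FC 0.97, adjusted p = 0.0136). Fasn, the fatty acid synthase, was lower by less than the fold limit, with 480.3, 486 and 411 before and 324, 288 and 362 after (log2FC -0.50, SE 0.11, adjusted p = 0.00876).

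Of 25 tested products of mature adipocytes 4 rose and 0 fell. Lpl, the lipoprotein lipase that takes up triglyceride fatty acids (ENSMUSG00000015568.16, chromosome 8 from 68880555 to 68906932), had 1883, 1760.4 and 2063 normalized counts before and 3846, 4248 and 3566 after NE (log2FC 1.03, SE 0.08, adjusted p = 2.10e-08). It lay at the limit of the fold change, and its call was lost without the unstimulated replicate 2 (log2FC 0.98, adjusted p = 2.66e-07), without the NE replicate 2 (log2FC 0.96, adjusted p = 5.66e-07) and with quantile normalization. Retn (resistin) had 122, 49.5 and 103 and 237, 239 and 196 (log2FC 1.38, SE 0.20, adjusted p = 1.51e-04) and Cidec, a lipid droplet protein, had 89.4, 41.8 and 73.9 and 135, 177 and 132 (log2FC 1.16, SE 0.21, adjusted p = 0.00116). Both calls were lost without the unstimulated replicate 2 (log2FC 0.99, adjusted p = 4.02e-05 for Retn and log2FC 0.84, adjusted p = 0.00612 for Cidec). Rbp4, the retinol carrier, had 19.1, 21.7 and 31.5 and 63.3, 47.3 and 67.4 (log2FC 1.28, SE 0.23, adjusted p = 9.24e-04), a call lost with only the 6 tSema4B libraries fitted. The lipases did not pass the test, with 538, 461 and 434 before and 644, 659 and 515 after NE for Pnpla2 (log2FC 0.34, SE 0.11, adjusted p = 0.0759) and 137, 176 and 148 and 189, 156 and 177 for Lipe (log2FC 0.18, SE 0.16, adjusted p = 0.585). Adipoq had 430.3, 404 and 474 and 553, 477 and 462 (log2FC 0.19, SE 0.11, adjusted p = 0.367). Pparg, the master regulator of adipogenesis, had 104, 80.4 and 114 and 74.0, 88.1 and 58.1 (log2FC -0.44, SE 0.19, adjusted p = 0.187).

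Several genes of glucose use were higher after NE, most of them by less than the fold limit. Of 33 tested genes of glucose uptake, glycolysis and glycogen 4 rose and 0 fell, 11 were higher and 0 lower at the adjusted p alone, and the median was 0.36 (0.35 to 0.39 under the 5 other scalings). The monocarboxylate transporters Slc16a3 and Slc16a1, which carry lactate and pyruvate, had 45.3, 113 and 80.8 before and 221, 219 and 287 after (log2FC 1.67, SE 0.23, adjusted p = 6.68e-05) and 422, 342 and 450.4 and 754, 920.3 and 810.0 (log2FC 1.04, SE 0.12, adjusted p = 1.07e-05). The call of Slc16a1 was lost without the unstimulated replicate 2 (log2FC 0.92, adjusted p = 1.18e-04) or the NE replicate 2 (log2FC 0.96, adjusted p = 2.06e-04). Ldhb, a lactate dehydrogenase subunit, had 224, 167 and 231 and 479, 506 and 374 (log2FC 1.13, SE 0.15, adjusted p = 3.54e-05), and its call was lost without the unstimulated replicate 2 (log2FC 0.98, adjusted p = 3.29e-04). Ldha had 3214, 3228 and 2969.5 before and 5365, 5625 and 6264 after, a change below the fold limit with a small error (log2FC 0.87, SE 0.07, adjusted p = 3.67e-08). Pfkfb3, which makes the activator of phosphofructokinase, had 40.5, 61.9 and 21.9 and 85.8, 90.9 and 67.4 (log2FC 1.06, SE 0.28, adjusted p = 0.0245), and its call was lost in 7 of 18 alternatives, among them leaving out the unstimulated replicate 3 (log2FC 0.68, adjusted p = 0.127) or the NE replicate 1 (log2FC 1.02, adjusted p = 0.0632) or 2 (log2FC 0.98, adjusted p = 0.0858). Of 34 tested genes of the tricarboxylic acid cycle and pyruvate entry 1 rose and 0 fell. It was Pdk1, the kinase that shuts off pyruvate dehydrogenase, which had 112, 145 and 118 and 188, 282 and 329 (log2FC 1.06, SE 0.17, adjusted p = 3.20e-04), and its call was lost without the unstimulated replicate 1 (log2FC 0.98, adjusted p = 0.00278) or the NE replicate 2 (log2FC 0.99, adjusted p = 0.00311) or 3 (log2FC 0.88, adjusted p = 0.00306). The glucose transporter gene Slc2a1 was also higher below the fold limit (217, 311 and 203 before and 423, 324 and 473 after, log2FC 0.75, SE 0.17, adjusted p = 0.0104).

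The remaining lists held few called genes. Of 23 tested NRF2 and heat-shock genes 2 rose and 1 fell. Mt2, a metal-binding metallothionein, had 257, 226 and 207 before and 700.2, 464 and 469 after NE (log2FC 1.22, SE 0.15, adjusted p = 1.97e-05), with 432 of its 588 exon bases shared with a gene on the opposite strand. Hsph1, a chaperone, had 100.1, 178 and 162 and 311, 309 and 346 (log2FC 1.17, SE 0.19, adjusted p = 3.91e-04), a call lost without the unstimulated replicate 1 (log2FC 0.92, adjusted p = 0.00295), whereas the small heat-shock protein gene Cryab had 51.2, 58.8 and 58.9 and 19.3, 13.3 and 25.1 (log2FC -1.54, SE 0.30, adjusted p = 0.00233). Of 19 genes of fatty acid uptake 2 rose, Lpl and Acsl4, and 1 fell. Both rises lost their call with quantile normalization and without the unstimulated or the NE replicate 2. Of 27 adipogenic transcription factors 1 rose and 1 fell, the latter 0 with quantile normalization. Of 28 genes of cholesterol synthesis and SREBP2 targets 1 rose, Abcg1, and 0 fell (median -0.21). Abcg1 lost its call in 7 of 18 alternatives, among them edgeR, DESeq2 and leaving out the unstimulated replicate 2 or the NE replicate 1. Of 20 genes of lipolysis and lipid droplets and 41 of the cell cycle 1 each rose and 0 fell. The latter, Ccne1, lost its call without the unstimulated replicate 2 or the NE replicate 1. Of 15 MAP kinase phosphatase and Sprouty genes 0 were called, and Dusp6, a phosphatase induced by ERK signalling, had 161, 217 and 155 before and 225, 186 and 161 after (log2FC 0.11, SE 0.17, adjusted p = 0.790).

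The genes that fell included growth factor, contractile and matrix genes. Igf1 (ENSMUSG00000020053.18, chromosome 10 from 87858265 to 87937047), the growth factor that supports adipocyte differentiation, had 741, 583 and 695 normalized counts before and 206, 233 and 207 after NE (log2FC -1.63, SE 0.16, adjusted p = 6.35e-07). It was the 1 called gene of 28 tested in insulin and IGF signalling. With quantile normalization, edgeR or DESeq2 the list held 2 genes that fell. Igfbp3, an IGF-binding protein, was just below the fold limit (887, 669.8 and 772 before and 370.0, 474 and 329 after, log2FC -0.99, SE 0.15, adjusted p = 1.97e-04) and became a call without the unstimulated replicate 2 (log2FC -1.10, adjusted p = 3.10e-04) or the NE replicate 2 (log2FC -1.14, adjusted p = 1.20e-04). Prokr1, a receptor of prokineticins, had 81.0, 135 and 133 before and 1.07, 28.4 and 14.5 after (log2FC -3.54, SE 0.60, adjusted p = 5.65e-04), and Efnb2, an ephrin ligand, had 79.9, 85.1 and 57.5 and 11.8, 15.1 and 23.8 (log2FC -2.10, SE 0.39, adjusted p = 0.00140). Npr3, the receptor that clears natriuretic peptides, had 64.4, 86.6 and 87.6 and 23.6, 25.6 and 31.7 (log2FC -1.52, SE 0.33, adjusted p = 0.00594). None of these groups overlapped. Chst15, a chondroitin sulfate sulfotransferase, had 56.0, 61.9 and 61.6 before and 5.36, 12.3 and 26.4 after (log2FC -2.20, SE 0.40, adjusted p = 0.00125), and Akr1c14, a steroid-reducing enzyme, had 39.3, 71.2 and 58.9 and 11.8, 17.0 and 13.2 (log2FC -1.91, SE 0.27, adjusted p = 1.05e-04).

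Of 21 tested smooth muscle genes and targets of serum response factor 3 fell and 0 rose, 7 were lower and 1 higher at the adjusted p alone, and the median was -0.46 (-0.51 to -0.44 under the 5 other scalings; -0.34 in vector cells). Myl9, a myosin light chain, had 145, 170.2 and 169.8 before and 72.9, 51.1 and 59.5 after (log2FC -1.40, SE 0.24, adjusted p = 7.15e-04). Tagln (transgelin) had 193, 181 and 123 and 64.3, 68.2 and 72.7 (log2FC -1.24, SE 0.20, adjusted p = 4.22e-04), with 1349 of its 1988 exon bases shared with other genes, 1241 of them with a gene on the opposite strand, whose reads cannot be told apart here. Lmod1 had 23.8, 24.8 and 26.0 and 10.7, 4.73 and 6.61 (log2FC -1.69, SE 0.51, adjusted p = 0.0486), and its call was lost in 13 of 17 alternatives, among them leaving out any of the unstimulated replicates (log2FC -1.72, adjusted p = 0.0963 without replicate 1, log2FC -1.70, adjusted p = 0.0994 without replicate 2 and log2FC -1.66, adjusted p = 0.107 without replicate 3) or the NE replicate 2 (log2FC -1.45, adjusted p = 0.141) or 3 (log2FC -1.66, adjusted p = 0.0930). Acta2, smooth muscle actin, was lower below the fold limit (1081, 1137 and 1057 before and 731, 461 and 802 after, log2FC -0.75, SE 0.17, adjusted p = 0.00785).

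Of 64 tested extracellular matrix genes 2 rose and 3 fell, with a median of -0.18 (-0.27 in vector cells). At the adjusted p alone 6 were higher and 18 lower. Quantile normalization gave 1 that rose and 4 that fell, and edgeR gave 1 and 2. Has1 was among the genes that rose (log2FC 2.48). Its call was lost in 9 of 17 alternatives, among them leaving out any of the NE replicates. Adamts5, a protease of aggrecan and versican, had 841, 905 and 748 before and 292, 339 and 428 after (log2FC -1.25, SE 0.13, adjusted p = 1.86e-06). Of 22 tested collagens 2 fell and 0 rose. Col5a3 had 209, 331 and 207 and 96.5, 103 and 131 (log2FC -1.14, SE 0.21, adjusted p = 0.00109), a call lost without the unstimulated replicate 2 (log2FC -0.92, adjusted p = 0.0121). Col15a1 had 215, 147 and 164 and 76.1, 65.3 and 108 (log2FC -1.08, SE 0.19, adjusted p = 0.00106), a call lost without the unstimulated replicate 1 (log2FC -0.92, adjusted p = 0.0123), without the NE replicate 2 (log2FC -0.92, adjusted p = 0.0101) and with a pseudocount of 10. The abundant Col1a1 was lower by little (10999, 12749 and 11422 before and 10022, 9330.0 and 9811 after, log2FC -0.27, SE 0.07, adjusted p = 0.0215). Of 20 tested preadipocyte and fibroblast markers 1 rose and 0 fell, while 2 were higher and 5 lower at the adjusted p alone and the median was -0.21. The gene that rose was Ly6a (Sca-1), with 281, 251 and 169.8 before and 589, 464 and 408 after (log2FC 1.07, SE 0.18, adjusted p = 6.57e-04), a call lost without the unstimulated replicate 3 (log2FC 0.86, adjusted p = 0.00635) or the NE replicate 1 (log2FC 0.93, adjusted p = 0.00692).

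**Figure D3:**
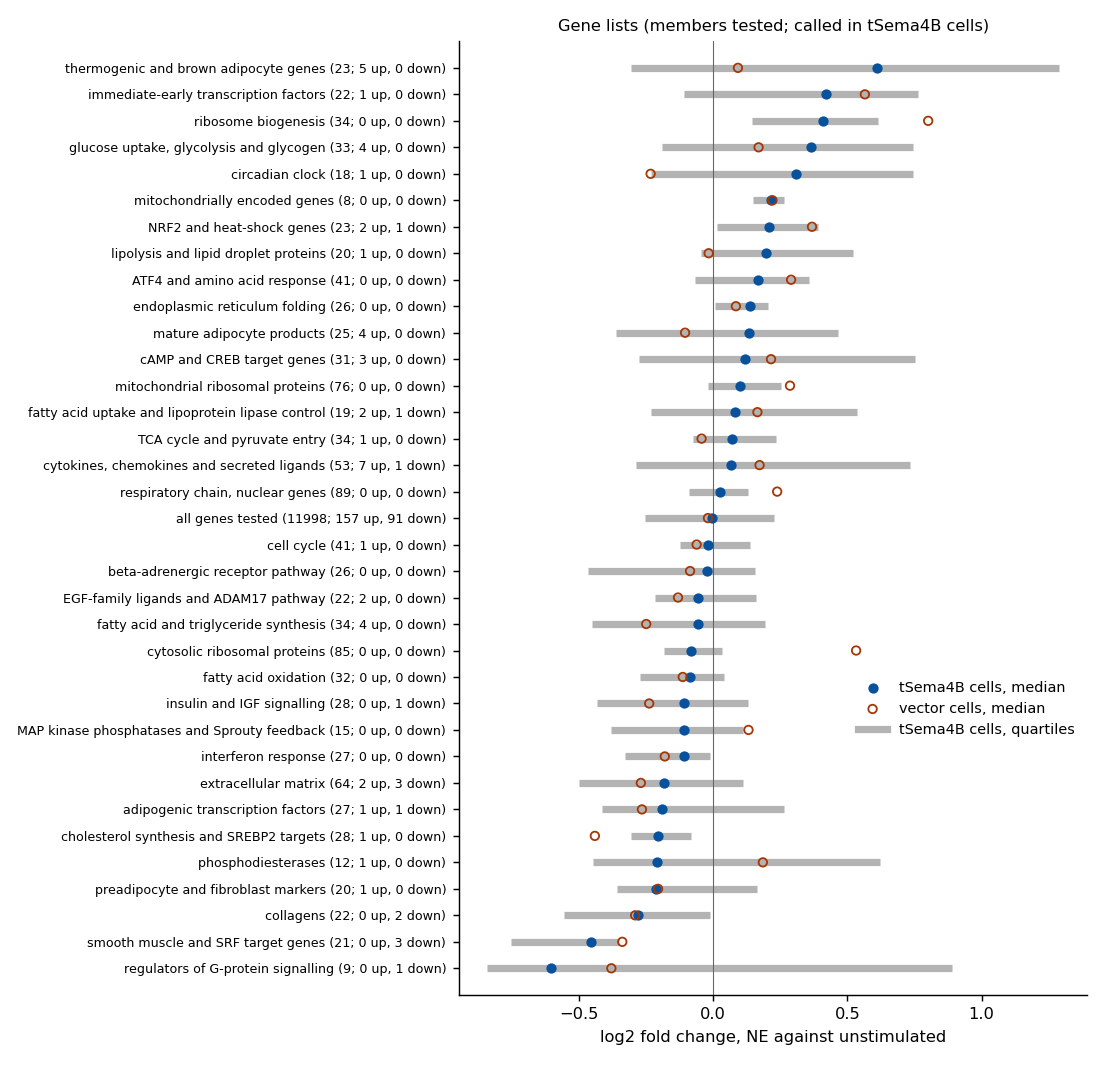
Median log2 fold change of NE against unstimulated for each list with at least 5 tested genes in tSema4B cells (filled points, with quartiles as bars) and vector cells (open points), with the members tested and those called in tSema4B cells in brackets. The thermogenic list has the highest median in tSema4B cells (0.61). The medians of the cytosolic ribosomal proteins are -0.08 in tSema4B cells and 0.53 in vector cells. No gene of either list passed the test of the difference.

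The parallel comparison asked how the response of tSema4B cells differed from that of vector cells. In vector cells NE raised 199 genes (1.66%) and lowered 117 (0.975%). Of the 157 genes that rose in tSema4B cells, 82 also rose in vector cells (52.2% of the tSema4B and 41.2% of the vector genes), and of the 91 that fell, 24 also fell (26.4% and 20.5%). No gene was called in opposite directions. Among the genes called in tSema4B cells, 148 of the 157 that rose and 82 of the 91 that fell had the same sign in vector cells, with a median log2 fold change there of 1.17 and -0.84. Across the 11998 genes, which are not independent replicates, the 2 sets of fold changes had a Pearson r of 0.48. The lines share no library in these comparisons, but within each condition every vector library was deeper than every tSema4B library (2841941 to 3682634 against 2000780 to 2541747 reads unstimulated, 4739777 to 5409583 against 2307190 to 3144946 after NE). The vector libraries had mitochondrial shares of 13.4% to 16.7%. With reads thinned to the shallowest library, 137 genes rose and 78 fell in tSema4B cells and 208 and 118 in vector cells. With the same total over nuclear genes, the counts were 162 and 81 in tSema4B cells and 192 and 126 in vector cells. The genes with a higher and a lower response in tSema4B cells numbered 4 and 0 with thinned reads and 3 and 0 with the nuclear total. Beyond these counts, the part of depth and mitochondrial share in the differences was not tested.

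**Figure D4:**
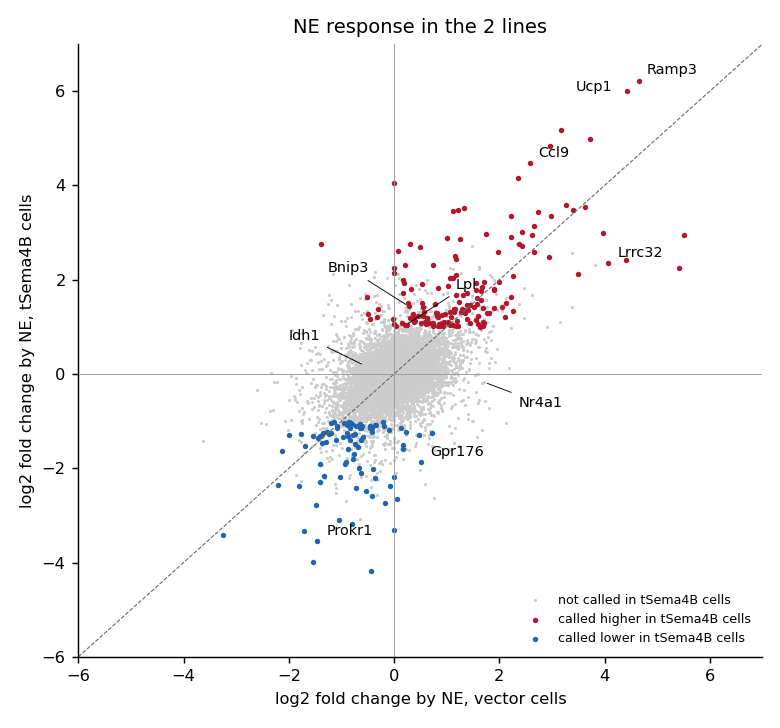
Log2 fold change by NE in tSema4B cells (vertical axis) against that in vector cells (horizontal axis) for the 11998 genes tested, with the line of equal response dashed. Genes called in tSema4B cells are coloured. Most of the called genes lie in the quadrants where both lines moved the same way.

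The test of the difference itself called 3 genes with a higher signed log2 fold change in tSema4B cells and 0 with a lower one (limma, adjusted p of 0.05 or less), while 602 and 625 genes had an unadjusted p under 0.05. On whole reads edgeR called 3 and 1 and DESeq2 29 and 58. Of 23 alternatives, the call of Bnip3 was lost in 11, with adjusted p-values up to 0.194, that of Idh1 in 8, mostly on leaving out single libraries of either line, and that of Lpl in 1, with no filter on low counts (adjusted p = 0.139). Bnip3, a mitochondrial mitophagy receptor (ENSMUSG00000078566.8, chromosome 7 from 138890836 to 138909506), had 185, 226 and 134 normalized counts before and 490.1, 481 and 474 after NE in tSema4B cells and 517, 628 and 525 and 675, 631 and 714 in vector cells (difference of the log2 fold changes 1.16, SE 0.20, adjusted p = 0.0371). NE raised it in tSema4B cells to a level somewhat below that of unstimulated vector cells. Of its 2265 exon bases 504 are shared with a gene on the opposite strand. Lpl, given above for tSema4B cells, had 7693, 7479.7 and 6495 and 8274, 8779.7 and 8012 in vector cells (difference 0.82, SE 0.11, adjusted p = 0.00399). Idh1, the cytosolic isocitrate dehydrogenase that supplies NADPH, had 2064, 1895 and 1919 before and 2228, 2243 and 2179 after NE in tSema4B cells, where the response did not pass the test, and 4521, 4381 and 3429.7 and 2819, 2689.7 and 2797 in vector cells, where it was lower at the adjusted p (log2FC -0.56, adjusted p = 1.29e-04; difference 0.74, SE 0.12, adjusted p = 0.0216). Without each of the 12 libraries in turn the test called between 1 and 9 genes with a higher and between 0 and 22 with a lower signed log2 fold change in tSema4B cells, the most without the unstimulated tSema4B replicate 2.

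**Figure D5:**
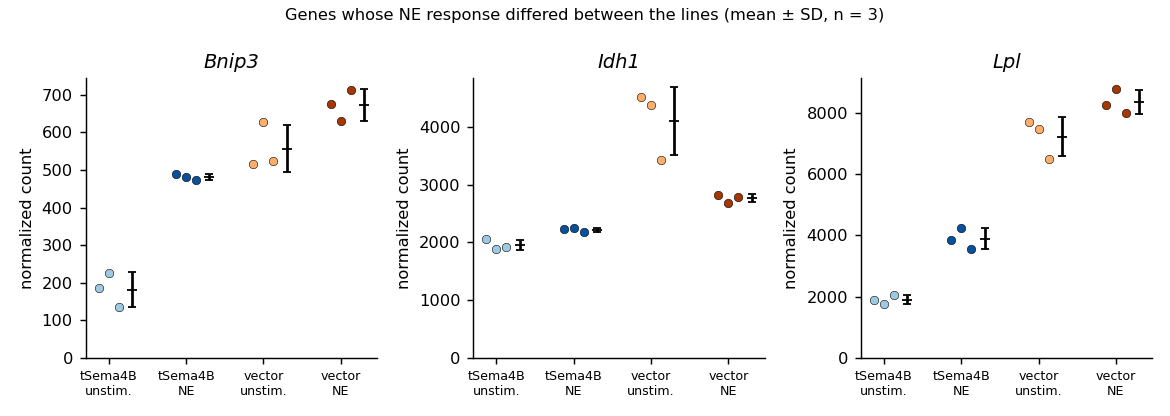
Normalized count (vertical axes, from 0) of Bnip3, Idh1 and Lpl in each library (points), with the mean and SD of each group of 3 beside them. Bnip3 and Lpl are higher after NE in the tSema4B libraries without overlap, and Idh1 is lower after NE in the vector libraries without overlap. The calls of the difference were lost in 11, 8 and 1 of 23 alternatives for Bnip3, Idh1 and Lpl.

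Ucp1 had fitted log2 fold changes of 6.00 in tSema4B and 4.42 in vector cells, and the difference did not pass adjustment (1.58, SE 0.51, adjusted p = 0.259). The tSema4B value depends on the pseudocount because no read was present before NE, and its lower bound from 3 reads, 3.76 on the log2 scale, is below the vector value, so the order of the responses is not established. Crem, Junb and Gk responded with log2 fold changes of 1.40, 1.24 and 1.58 in tSema4B cells and 1.69, 1.59 and 1.64 in vector cells, and the differences were -0.29 (SE 0.29), -0.35 (SE 0.19) and -0.07 (SE 0.25) with adjusted p-values of 0.794, 0.561 and 0.961. Igf1 fell in both lines (-1.63 and -2.13, difference 0.49, SE 0.23, adjusted p = 0.461).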

How the data were processed

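RNAseq of 12 libraries was used, 3 in each of 4 groups given by the labels. The authors made cDNA by SMART-Seq2, removed reads of other species, used STAR 2.7.9a for alignment to mm10 (GRCm38.p4), counted with htseq-count, and applied the normalization of DESeq2. The signal deposited is thus a normalized count per gene. Every value above 0 was a whole number of reads times a constant of its library (tolerance 0.01), so reads were recovered for edgeR and DESeq2. The annotation and strand setting are not given in the sources used here.

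In R 4.3.3, limma 3.58.1 with an abundance trend was fitted to log2(normalized count + 1) for 4 groups, with contrasts for NE in each line and their difference. Alternatives were pseudocounts of 0.5 and 10, other filters, scalings and thresholds, edgeR 4.0.16, DESeq2 1.42.0, thinned reads, only the 6 tSema4B libraries, a replicate block and each library left out. The test was tested on simulated data. An exact permutation test of 3 against 3 cannot go below 0.1.

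The members and the 38 gene lists were chosen with earlier results of these data known. Genes named are a fixed set of core genes, the 12 called genes of largest change in each direction without overlap and with a mean of at least 50, up to 4 called members and the 2 most abundant of each list, and called genes of the difference; others are said to be chosen after their values were seen. Values of some core genes are not reported here. Positions and promoters are from RefSeq (GRCm38.p6) and gene IDs and exon overlaps from GENCODE (GRCm38), which share primary coordinates with the build of the files.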

Additional observations from a re-analysis of the deposited data

Results flagged for a closer look

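The NE response differed between tSema4B and vector cells for 3 genes by the test of the difference (limma, adjusted over 11998 genes). The difference of the log2 fold changes was 1.16 for Bnip3 (adjusted p = 0.0371; 0.96 to 1.33 over 23 alternatives, with the adjusted p over 0.05 in 11 of them, up to 0.194), 0.74 for Idh1 (adjusted p = 0.0216; 0.66 to 0.86, over 0.05 in 8) and 0.82 for Lpl (adjusted p = 0.00399; 0.75 to 0.89, over 0.05 in 1, with no filter on low counts). All 3 had lower levels in each unstimulated tSema4B library than in each unstimulated vector library.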

How the results depend on the processing

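In tSema4B cells the counts of genes that rose and fell stayed within 1.5 times 157 and 91, with these exceptions. Genes that fell numbered 59 with a filter at 50 normalized counts and 50 with only the 6 tSema4B libraries, where genes that rose numbered 107. With the adjusted p alone the counts were 441 and 309. Without each of the 6 libraries in turn 124 to 160 rose and 66 to 120 fell. Of the 248 called genes, 101 kept their call under all alternatives that tested them. In vector cells the adjusted p alone gave 818 and 574, the genes that fell numbered 68 with a pseudocount of 10 and 77 with no filter, and leaving out each library gave 150 to 198 and 78 to 98. For the difference of the responses, genes with a higher signed log2 fold change in tSema4B cells numbered 0 with no filter, 29 with DESeq2 and 1 with a difference of at least 1 also required, and genes with a lower one numbered 1 with a pseudocount of 10, 1 with edgeR and 58 with DESeq2. Leaving out each of the 12 libraries gave 1 to 9 and 0 to 22. The causes were not tested. No named gene changed direction between calls. With the replicate block 153 genes rose and 85 fell in tSema4B cells and 192 and 111 in vector cells. With it 3 and 0 genes differed in response. Same-numbered libraries of different groups had correlations of -0.047 to 0.028 after removal of group means, 0 of 18 pairs over 0.1. No strong shared effect of the replicate number was seen. Whether same-numbered libraries were handled together cannot be told from these values. With 3 reads worth up to 4.64 normalized counts, changes of genes below about 10 counts rest on few reads.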

Other observations

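Of 34 tested genes of ribosome biogenesis 0 were called in tSema4B cells and 6 were higher at the adjusted p alone (median log2 fold change 0.41), while 9 rose in vector cells (median 0.80). The median of 85 cytosolic ribosomal protein genes was -0.08 in tSema4B cells (-0.09 to -0.06 under the 5 other scalings). It was 0.53 in vector cells, given under the main scaling only, and 0 were called in either line. No gene of either list passed the test of the difference. Of 18 clock genes 1 rose, Arntl, with 51.2, 65.0 and 52.0 normalized counts before and 127, 116 and 114 after NE (log2FC 1.07, SE 0.21, adjusted p = 0.00212), and its call was lost with a pseudocount of 10 and with thinned reads. Of 41 genes of the ATF4 and amino acid response, 26 of endoplasmic reticulum folding and 27 of the interferon response, 0 were called.

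The next 4 genes were chosen after their values were seen and had few or no reads before NE. Fga, the fibrinogen alpha chain, had 2.38, 0 and 0 normalized counts before and 15.0, 27.5 and 9.25 after NE in tSema4B cells (adjusted p = 0.00343), and 10.9, 0.841 and 3.27 and 35.6, 49.2 and 58.3 in vector cells. Fgl1, a hepatokine, had 0, 1.55 and 0 and 16.1, 15.1 and 13.2 (adjusted p = 1.97e-04). Both kept their call in the 17 alternatives that tested them. Fgb had 0, 0 and 0 and 9.65, 4.73 and 6.61 (adjusted p = 0.0177) against 0, 0 and 0 and 45.0, 30.2 and 63.5 in vector cells, and its call was lost without the NE replicate 1, with a pseudocount of 10 and with only the 6 tSema4B libraries. Fgg, the third fibrinogen chain, had 0, 0 and 4.11 and 11.8, 5.68 and 5.29 (adjusted p = 0.0425) against 2.17, 1.68 and 5.45 and 136, 142 and 219 in vector cells, and its call was lost in 12 alternatives, among them leaving out any library but the unstimulated replicate 3. Among other genes chosen after their values were seen, Ren1 (renin), the aspartyl protease of the angiotensin system, had 0, 0 and 1.37 before and 55.8, 42.6 and 29.1 after (adjusted p = 1.77e-04), and Nmu, the neuropeptide neuromedin U, had 1.19, 0 and 1.37 and 53.6, 52.1 and 41.0 (adjusted p = 9.27e-05).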
